A study of Mus musculus with 24 samples.

Results

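The genes described here are the 6 sarcomeric myosin heavy chains of muscle fibres Myh7, Myh2, Myh1, Myh4, Myh3 and Myh8, taken by gene symbol from tables of 36172 gene models in 24 RNA-seq libraries of mouse gastrocnemius, a mixed but mainly fast calf muscle. A myosin heavy chain is the motor protein of the thick filament, and the isoform a fibre makes sets how fast it contracts and names its type. Myh7 encodes the slow chain of type 1 fibres, Myh2 the fast oxidative chain of type 2A, Myh1 that of type 2X and Myh4 the fastest chain, that of type 2B. Myh3 (embryonic) and Myh8 (perinatal) encode developmental chains that are replaced as muscle matures and that reappear in regenerating fibres. A filter on low counts left 13048 genes to be tested, and all 6 were among them.

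The study compared 2 genotypes in 3 states, with 4 libraries per group. WT mice carried Notch2f/f, floxed alleles of the receptor gene Notch2, and Notch2-mKO mice carried Mlc1fCre/+;Notch2f/f, in which Cre is driven from the locus of the fast fibre light chain Mlc1f, so both genotypes were floxed and only one had Cre. All mice were C57BL/6, of an age that the labels do not give. Each genotype was studied untreated (control), with the hindlimbs kept off the ground by suspension for 7 days (unloading), and at day 14 after 150 mg/kg of streptozotocin, a toxin of pancreatic beta cells, had been injected once (diabetes). The labels number the replicates without saying that each is a separate animal, so the p-values below reflect the spread among these libraries, which may be technical. Replicates of a group differed by more than counting noise, with a chi-square per gene of 14.7 or more in every pair.

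Libraries held 33112459 to 56369917 estimated counts. The fibre markers Acta1, Ckm, Mylpf, Des, Ttn and Mb were present in every library, with a summed level of 128513 to 162170.0 CPM (counts scaled to library size) in WT control, 83190.4 to 110280.0 in WT unloading and 101098 to 119106 in WT diabetes. In Notch2-mKO it was 120578 to 140415, 71703 to 123586 and 109439 to 131671, where treated and control libraries overlapped. Some markers of other tissues moved with the treatments. The summed level of 4 tendon markers was 103 to 129.7 CPM in WT control, 32.5 to 48.2 in WT unloading and 45.3 to 56.5 in WT diabetes, and 92.5 to 124, 45.2 to 60.7 and 41.7 to 49.7 in the Notch2-mKO groups. Most of that sum is Thbs4. Tnmd and Comp also had control ranges above those of unloading and diabetes in both genotypes, and Scx (5.09 to 9.80 CPM in WT control, 5.82 to 11.03 in WT unloading and 3.87 to 9.68 in WT diabetes) overlapped. Of 5 cardiac markers, Myh6, Nppa, Myl7 and Tnni3 together stayed between 0.597 and 3.73 CPM in all 24 libraries. Most of this sum was Myh6 (a mean of 2.19 of 2.25 CPM in WT control), and Myl7 was at 0 in every WT library. The other cardiac marker is Actc1, which developing muscle also makes. It had 479 to 2528 CPM in WT control, 29.0 to 206 in WT unloading and 51.0 to 385 in WT diabetes. In Notch2-mKO it had 288 to 1081, 23.3 to 111 and 96.8 to 201 in the same order. Endothelial markers summed to 169 to 229 CPM in WT control and 125 to 153 in WT unloading. Smooth muscle markers summed to 43.5 to 56.9 CPM in WT control and 66.0 to 97.1 in WT diabetes. The other treated groups overlapped their controls in both of these sums. The part of the tendon, endothelial and smooth muscle markers and of Actc1 in the results was not tested. The log2 level of AT-rich transcripts relative to GC-rich ones also moved. It is given as the deviation from its mean over the 24 libraries. This was -0.984 to -0.189 in WT control, 0.367 to 0.536 in WT unloading and 0.205 to 0.568 in WT diabetes. In Notch2-mKO it was -0.615 to 0.0503 in control, -0.213 to 0.304 in unloading and -0.0214 to 0.323 in diabetes. Notch2 itself had 50.6 to 166 counts per library and passed no comparison of the genotypes, so its level in whole muscle does not check the genotype.

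Myh3, Myh2, Myh1, Myh4 and Myh8 lie in that order on the plus strand of chromosome 11 (GRCm38.p6), from chr11:67078273-67102291 for Myh3 to chr11:67277124-67308634 for Myh8, with Myh2 at chr11:67171027-67197517, Myh1 at chr11:67200102-67224577 and Myh4 at chr11:67237812-67260447. Myh7 lies apart, on the minus strand at chr14:54970684-54994626. The 250 bases before the RefSeq start site of the 5 clustered genes are shown because these neighbours gave different responses below although some of them share promoter sequence. Capitals mark TATAAA on either strand and a run of 14 bases.
Myh3 (chr11:67078050-67078299, plus strand): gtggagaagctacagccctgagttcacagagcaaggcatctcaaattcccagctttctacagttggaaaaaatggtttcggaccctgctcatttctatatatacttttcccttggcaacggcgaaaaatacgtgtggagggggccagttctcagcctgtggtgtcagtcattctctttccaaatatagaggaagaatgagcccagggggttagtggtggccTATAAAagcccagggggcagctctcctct
Myh2 (chr11:67170777-67171026, plus strand): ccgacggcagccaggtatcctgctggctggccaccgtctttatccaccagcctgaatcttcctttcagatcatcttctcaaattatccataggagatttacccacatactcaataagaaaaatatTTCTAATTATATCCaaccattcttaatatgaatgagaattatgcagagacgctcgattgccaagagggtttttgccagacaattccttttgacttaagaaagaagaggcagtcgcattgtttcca
Myh1 (chr11:67199852-67200101, plus strand): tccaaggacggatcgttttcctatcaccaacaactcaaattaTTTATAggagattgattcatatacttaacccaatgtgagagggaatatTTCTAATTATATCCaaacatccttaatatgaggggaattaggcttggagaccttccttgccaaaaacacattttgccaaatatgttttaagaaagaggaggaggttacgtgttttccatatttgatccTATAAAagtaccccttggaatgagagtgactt
Myh4 (chr11:67237562-67237811, plus strand): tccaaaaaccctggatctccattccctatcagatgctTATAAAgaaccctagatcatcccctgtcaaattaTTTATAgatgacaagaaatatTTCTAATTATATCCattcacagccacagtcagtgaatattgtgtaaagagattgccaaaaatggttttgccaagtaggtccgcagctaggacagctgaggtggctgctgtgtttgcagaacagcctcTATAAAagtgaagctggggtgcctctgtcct
Myh8 (chr11:67276874-67277123, plus strand): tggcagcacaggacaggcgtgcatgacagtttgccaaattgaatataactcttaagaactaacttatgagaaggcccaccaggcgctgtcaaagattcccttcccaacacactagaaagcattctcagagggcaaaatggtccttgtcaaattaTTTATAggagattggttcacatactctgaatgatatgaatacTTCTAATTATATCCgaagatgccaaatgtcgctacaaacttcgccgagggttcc

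The run TTCTAATTATATCC begins at -125 in Myh2, -160 in Myh1, -158 in Myh4 and -54 in Myh8, and was found in 4 of 27025 RefSeq promoters (0.0148%) searched from 250 bases before to 50 after the start, on both strands. It was chosen because these promoters share it, so its rarity is a description. Neither Myh3 nor Myh7 holds it. TATAAA was found in 14.16% of the promoters, among them Myh3 at -29, Myh1 at -208 and -32, Myh4 at -213, -179 and -31, Myh8 at -96 and Myh2 at 11 bases after the annotated start, outside the sequence shown. The consensus site of MEF2, a transcription factor of muscle, was matched in Myh1 at -211, Myh4 at -182 and Myh8 at -99, overlapping a TATAAA each time (1.891% of promoters). A CArG box, the site of serum response factor, was matched in Myh4 at -104 (1.573%). GTGGGAA, the core bound by the Notch effector RBPJ (6.39% of promoters), was not in the window of any of the 6 genes. These are matches of letters in short windows and show no binding.

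The 6 genes differed widely in level. Per kilobase of transcript, Myh4 had a mean of 13142 CPM over the 24 libraries, Myh1 646, Myh2 313, Myh7 76.0, Myh3 0.663 and Myh8 0.750. The order Myh4, Myh1, Myh2, Myh7 held in 24 of 24 libraries, with both developmental genes below Myh7 in each. Myh8 was above Myh3 in every control and unloading library, and Myh3 was above Myh8 in 3 of 4 WT diabetes and 3 of 4 Notch2-mKO diabetes libraries.

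The summed counts of the 6 genes made up 5.99 to 10.1% of a library. Of this sum Myh4 took 92.5% ± 0.503 (SD, n = 4) in WT control, Myh1 4.43% ± 0.625, Myh2 2.60% ± 0.495 and Myh7 0.458% ± 0.186. Myh8 took 0.00520% ± 0.00136 and Myh3 0.00259% ± 0.000848. Because Myh4 fills the sum, a share of another member is close to its ratio to Myh4, and the share of Myh4 moves little: its group means lay between 91.3 and 93.4%. Library 1 of Notch2-mKO unloading stood apart, with Myh4 at 86.2% against 92.9 to 93.0% in the other 3 libraries and Myh1 at 10.4%.

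**Figure D1:**
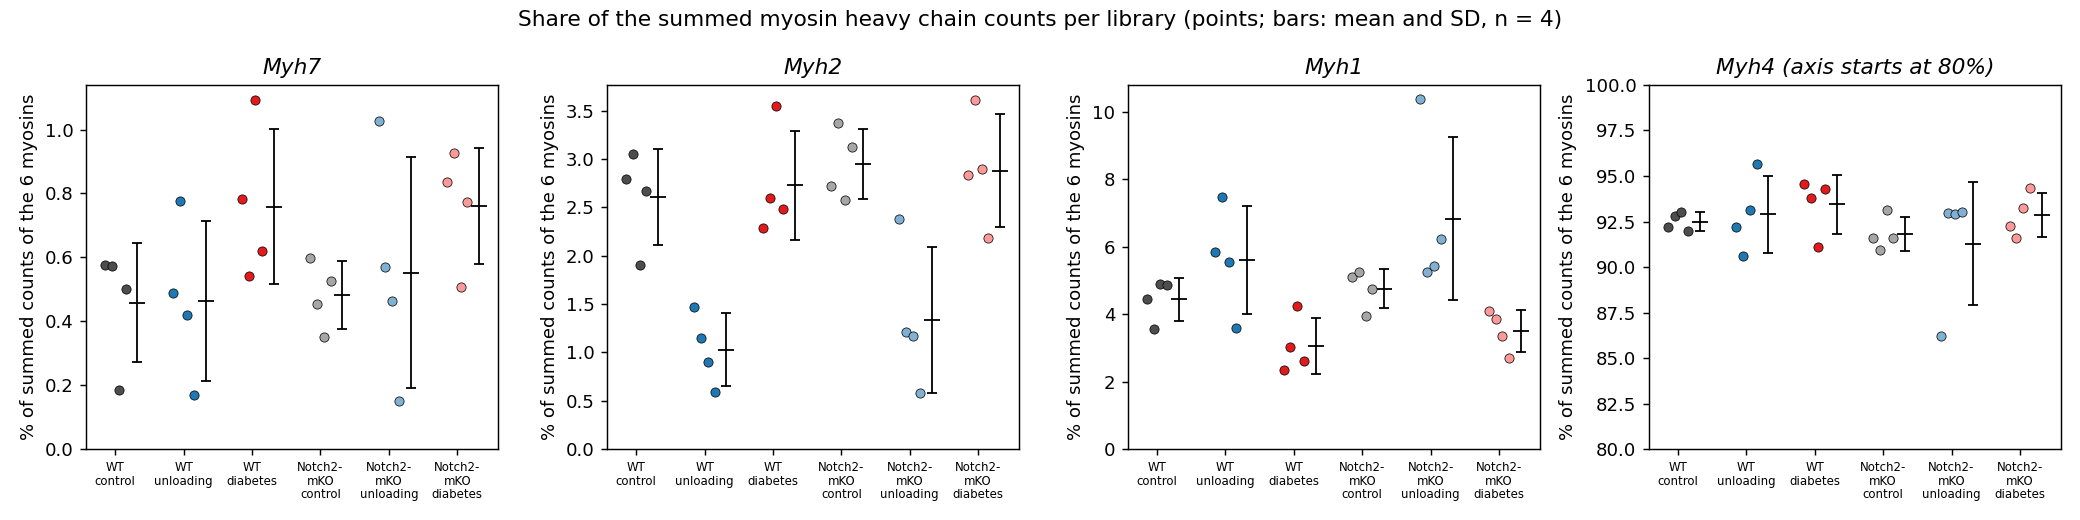
Share of each adult myosin in the summed estimated counts of the 6 myosins (vertical axes in percent, 1 point per library, bars give mean and SD of 4 libraries). The Myh2 points of the unloading groups lie below those of their controls, and Myh4 holds 86.2 to 95.7% in all 24 libraries.

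Unloading lowered the fast oxidative chain Myh2 in both genotypes. The embryonic chain Myh3 was also called in both, less securely, at low counts and with WT unloaded libraries that overlapped the controls. Of the 6 genes, 2 fell and 0 rose in WT unloading, where 16.3% of all genes tested fell and 18.4% rose by edgeR's quasi-likelihood test with Benjamini-Hochberg adjustment at 0.05. In Notch2-mKO unloading the 2 that fell were again Myh2 and Myh3, and 0 rose, against 3.20% and 4.11% of all genes. The number of genes behind these 2 percentages, 954, changed on leaving out 1 library. It was 1014, 411, 504 and 439 without control library 1, 2, 3 or 4. Without unloaded library 1, 2, 3 or 4 it was 672, 610, 1127 and 570. At an unadjusted p under 0.05 no member was higher in either comparison, and DESeq2 also called 2 members in each. In bulk tissue, fewer fibres of a type and less RNA of that gene per fibre cannot be told apart.

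Myh2 was measured at 2602, 2921, 2099 and 2453 CPM in the 4 WT control libraries and at 1024, 1008, 685 and 509 CPM in WT unloading. The highest unloaded library was below the lowest control. The mean fell from 2519 ± 341 CPM (SD, n = 4) to 806 ± 252 CPM (SD, n = 4), 3.12-fold lower (log2 fold change -1.64, SE 0.21, adjusted p = 5.05e-06). In Notch2-mKO the control libraries had 2407, 3170.0, 2635 and 2894 CPM and the unloaded ones 1114, 1277, 985 and 535 CPM, again without overlap. This fall was 2.84-fold (log2 fold change -1.51, SE 0.21, adjusted p = 0.000376). The 2 lowest Myh2 values of the 24 libraries were in library 4 of each unloading group, and so were the 2 lowest Myh7 values.

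As a share of the summed myosin counts, Myh2 went from 2.60% ± 0.495 to 1.03% ± 0.375 (SD, n = 4) in WT and from 2.95% ± 0.365 to 1.33% ± 0.754 in Notch2-mKO, with no overlap between unloaded and control libraries in either genotype. With library sizes set to the summed counts of the 6 genes, so that the edgeR test is one of shares, Myh2 still passed (-1.34, adjusted p = 0.000624 in WT; -1.14, adjusted p = 0.0247 in Notch2-mKO). With the trend with GC content and length removed, its log2 fold change was -1.47 in WT and -1.38 in Notch2-mKO, both past the test. By limma on the authors' log2 values the fall passed in WT (-1.44, adjusted p = 0.0204) and not in Notch2-mKO (-1.44, adjusted p = 0.597).

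**Figure D2:**
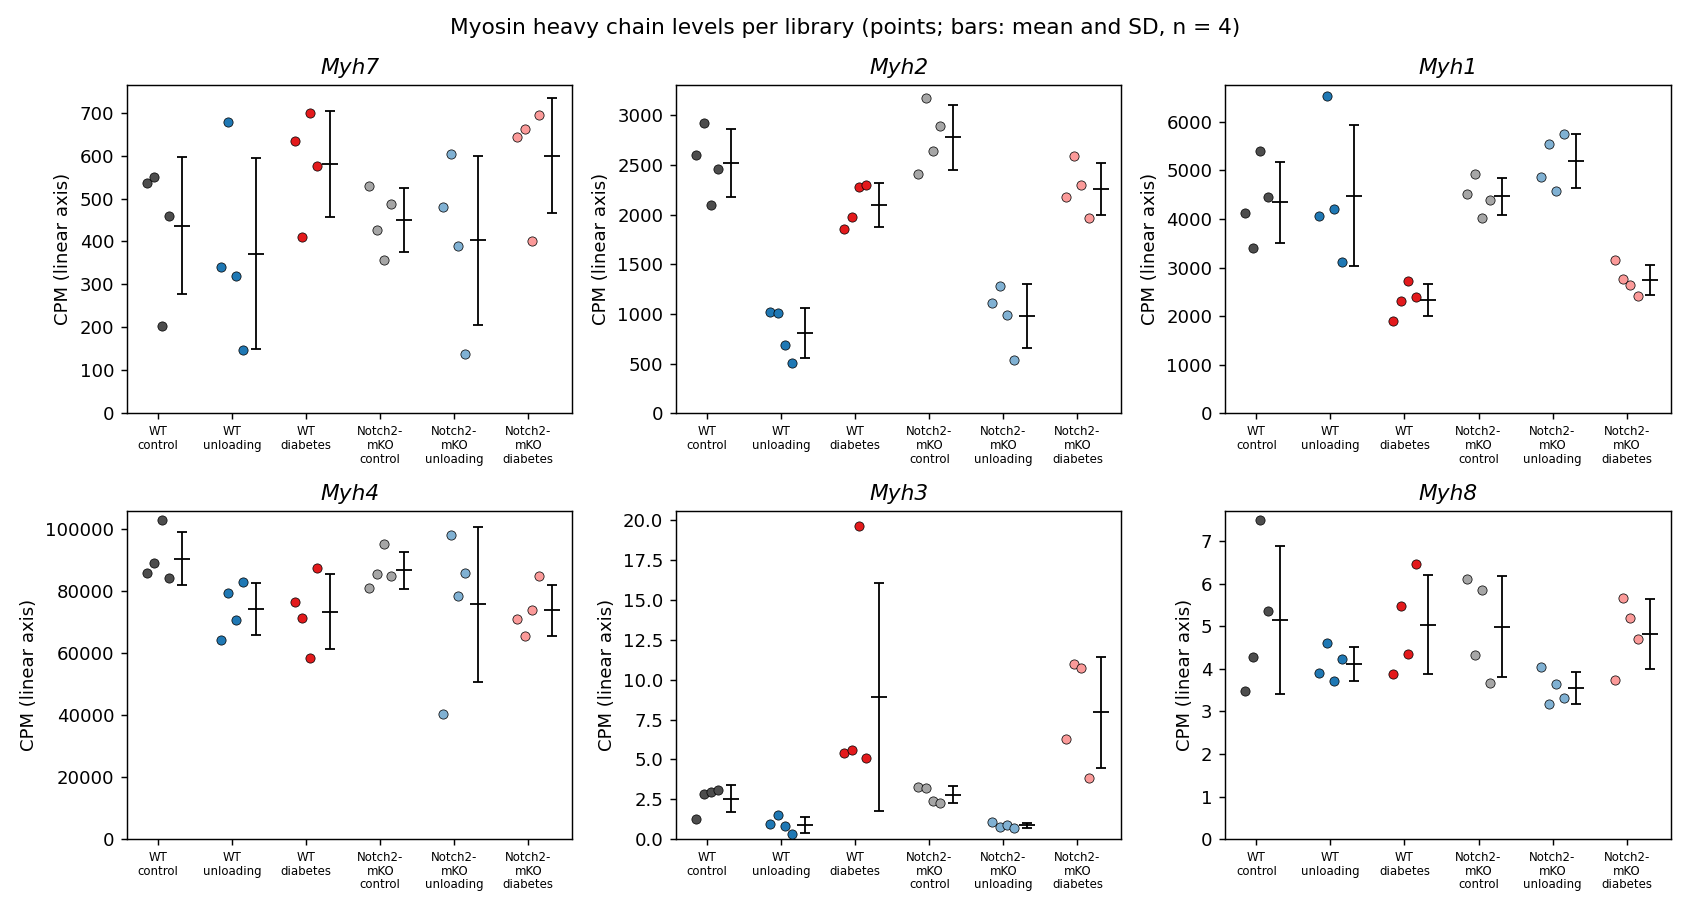
CPM of each of the 6 myosins in every library (linear axes from 0, points are libraries, bars give mean and SD of 4). Unloaded libraries lie below controls for Myh2, diabetic libraries below controls for Myh1, and diabetic libraries above controls for Myh3.

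Diabetes lowered the type 2X chain Myh1 and raised Myh3 in both genotypes. In WT diabetes 1 member fell (15.5% of all genes fell) and 1 rose (17.8% rose). In Notch2-mKO diabetes it was again 1 that fell and 1 that rose, where 2.54% of all genes fell and 3.05% rose. These 730 genes became 995, 275, 320 and 153 without control library 1, 2, 3 or 4. Without diabetic library 1, 2, 3 or 4 they became 346, 257, 310 and 178. The 2 genes were the same in both genotypes. Each kept its call in 8 of 8 fits that left out 1 library in WT, but in 3 of 8 in Notch2-mKO.

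Myh1 was measured at 4134, 3402, 5409 and 4449.8 CPM in WT control and at 1910.2, 2309, 2716 and 2405 CPM in WT diabetes. All diabetic libraries were below all controls. The mean fell from 4349 ± 832 CPM (SD, n = 4) to 2335 ± 332 CPM (SD, n = 4), 1.86-fold lower (log2 fold change -0.90, SE 0.17, adjusted p = 0.000338). In Notch2-mKO the controls had 4509, 4927, 4023 and 4399.5 CPM and the diabetic libraries 3148, 2759.8, 2647 and 2420.4 CPM, also without overlap, a fall of 1.63-fold (log2 fold change -0.70, SE 0.17, adjusted p = 0.0206). In the unloaded libraries Myh1 had 4059.6, 6530.1, 4211 and 3108 CPM in WT and 4859.8, 5553, 4582 and 5752 CPM in Notch2-mKO. These overlapped the controls and gave no call (WT log2 fold change 0.04, SE 0.17, adjusted p = 0.873; Notch2-mKO log2 fold change 0.22, SE 0.17, adjusted p = 0.459). As a share of the summed myosin counts, Myh1 was 10.4, 5.25, 5.44 and 6.23% in Notch2-mKO unloading and 5.09, 5.24, 3.93 and 4.75% in its controls. These did not overlap, by a narrow margin, and the test on summed myosin counts did not pass (0.52, adjusted p = 0.107). In WT the shares overlapped.

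The fall of Myh1 in diabetes was less clear as a share. Its share went from 4.43% ± 0.625 to 3.06% ± 0.838 (SD, n = 4) in WT and from 4.75% ± 0.584 to 3.50% ± 0.621 in Notch2-mKO, with overlap in both, and the test on summed myosin counts did not pass (-0.54, adjusted p = 0.0601 in WT; -0.44, adjusted p = 0.247 in Notch2-mKO). In Notch2-mKO the call on CPM was also lost on leaving out control library 2 or 4 or diabetic library 2, 3 or 4, with log2 fold changes of -0.77 to -0.65 and adjusted p of 0.0254 to 0.0801 over the 8 fits.

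**Figure D3:**
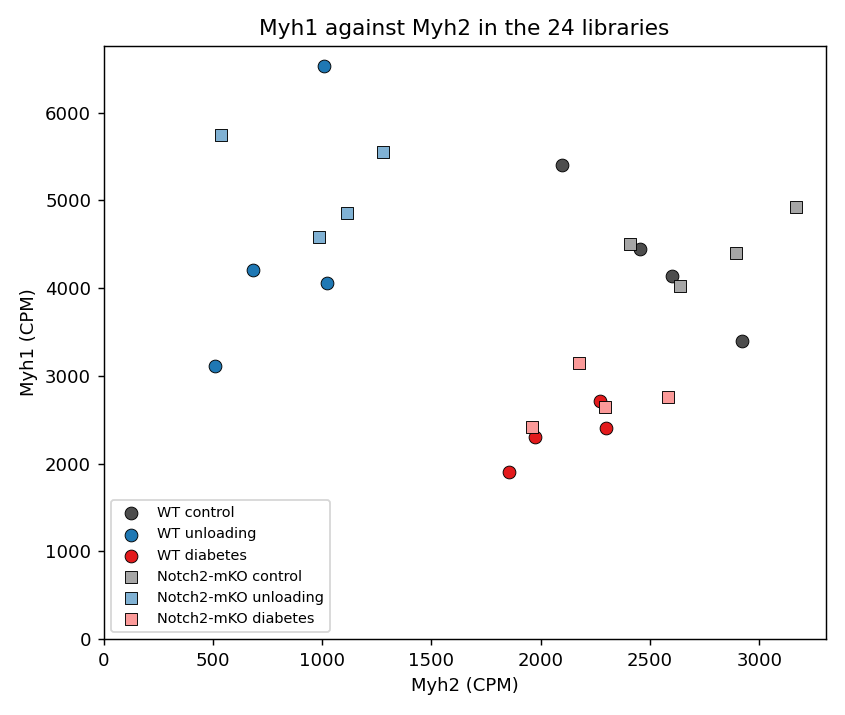
Myh1 (vertical axis, CPM) against Myh2 (horizontal axis, CPM), 1 point per library, circles WT and squares Notch2-mKO. Unloaded libraries lie at low Myh2 (509 to 1277 CPM) and diabetic ones at low Myh1 (1910 to 3148 CPM), with the controls at high values of both.

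The ratio of Myh2 to Myh1 counts, given as a description, was 0.607 ± 0.196 (SD, n = 4) in WT control, 0.183 ± 0.0461 after unloading and 0.904 ± 0.0682 in diabetes. In Notch2-mKO it was 0.623 ± 0.0595, 0.192 ± 0.0662 and 0.826 ± 0.103. The unloaded libraries of both genotypes, at 0.0930 to 0.252, did not overlap any other group. Diabetic and control libraries overlapped in WT. In Notch2-mKO they did not, with 0.692 to 0.936 in diabetes and 0.534 to 0.658 in control.

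Myh3 fell with unloading and rose with diabetes, at low counts. Counts were 43.0, 120.1, 104 and 99.0 in the 4 WT control libraries, 44.3, 74.9, 39.1 and 11.5 in WT unloading and 234, 260.0, 1025 and 285 in WT diabetes. In CPM the WT controls had 1.29, 2.85, 2.94 and 3.06, the unloaded libraries 0.933, 1.54, 0.816 and 0.326 and the diabetic ones 5.42, 5.56, 19.6 and 5.10. WT control library 1 was low and overlapped the unloaded range, and WT diabetes library 3 was high, but every diabetic library was above every control. Unloading gave log2 fold change -1.46, SE 0.45, adjusted p = 0.0128 and diabetes log2 fold change 1.81, SE 0.41, adjusted p = 0.00155. Without diabetes library 3 the rise was 1.08, the smallest value on leaving out any library, and still passed.

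In Notch2-mKO, Myh3 had 3.27, 3.21, 2.42 and 2.25 CPM in control, 1.11, 0.731, 0.881 and 0.728 CPM in unloading and 6.26, 11.003, 10.7 and 3.82 CPM in diabetes, and neither treated group overlapped the controls. It fell with unloading (log2 fold change -1.69, SE 0.45, adjusted p = 0.0246) and rose with diabetes (log2 fold change 1.51, SE 0.41, adjusted p = 0.0326). The call in unloading was lost without control library 2 or unloaded library 2 or 4 (adjusted p up to 0.0612), and that in diabetes without control library 2, 3 or 4 or diabetic library 2 or 3 (up to 0.105). On summed myosin counts the rise in diabetes passed in both genotypes (2.27, adjusted p = 0.000754 in WT; 1.79, adjusted p = 0.0468 in Notch2-mKO) and the fall in unloading in neither (-1.17, adjusted p = 0.0792; -1.34, adjusted p = 0.0825). By limma on the authors' log2 values Myh3 passed in none of the 4 comparisons. Its log2 fold changes were 1.40 and 1.27 in WT and Notch2-mKO diabetes (adjusted p = 0.0952 and 0.0709). In WT and Notch2-mKO unloading they were 0 and -0.02, with SE of 0.00202 and 0.0232. The deposited log2 values of Myh3 thus hardly varied among control and unloaded libraries, so that fit could not show a fall there.

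Myh4, Myh7 and Myh8 passed the test in none of the treatment comparisons. Myh4, the main chain of this muscle, had 85768, 89034, 102832 and 84388 CPM in WT control, 64244, 79251, 70628 and 83059 in WT unloading and 76646, 71346, 58308 and 87322 in WT diabetes. Its unloaded libraries were all below its controls, while the diabetic ones overlapped them. The 95% interval of its log2 fold change was -0.66 to 0.09 in WT unloading (adjusted p = 0.237), -0.68 to 0.07 in WT diabetes (0.211), -0.57 to 0.18 in Notch2-mKO unloading (0.543) and -0.61 to 0.14 in Notch2-mKO diabetes (0.480). Library 1 of Notch2-mKO unloading had 40359 CPM against 78296 to 98269 in the other 3.

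The slow chain Myh7 had the highest coefficient of variation of the 4 adult genes in each of the 6 groups, 16.6 to 59.9%. It had 536, 549.5, 204 and 459 CPM in WT control, 341, 679, 319 and 147 in WT unloading and 634, 411, 699 and 575 in WT diabetes. WT control library 3 and WT unloading library 4 were low, and all 3 groups overlapped. In Notch2-mKO it had 529, 426, 358 and 488 CPM in control, 481, 603, 389.5 and 139 in unloading and 643, 662, 401 and 695 in diabetes, again overlapping. The estimates were -0.24 in WT unloading (95% interval -0.99 to 0.52) and 0.41 in WT diabetes (-0.35 to 1.17), so that neither direction could be resolved with this spread.

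The perinatal chain Myh8 stayed between 3.18 and 7.50 CPM in all 24 libraries, or 116 to 361 counts. Unlike Myh3 it showed no call in diabetes (WT log2 fold change -0.03, SE 0.21, adjusted p = 0.932; Notch2-mKO log2 fold change -0.05, SE 0.21, adjusted p = 0.918). In unloading its values were lower but did not pass (WT log2 fold change -0.32, SE 0.21, adjusted p = 0.241; Notch2-mKO log2 fold change -0.49, SE 0.21, adjusted p = 0.144). Myh8 counts were 5.62 ± 1.46 per 100000 Myh4 counts in WT control and 6.89 ± 1.24 in WT diabetes.

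**Figure D4:**
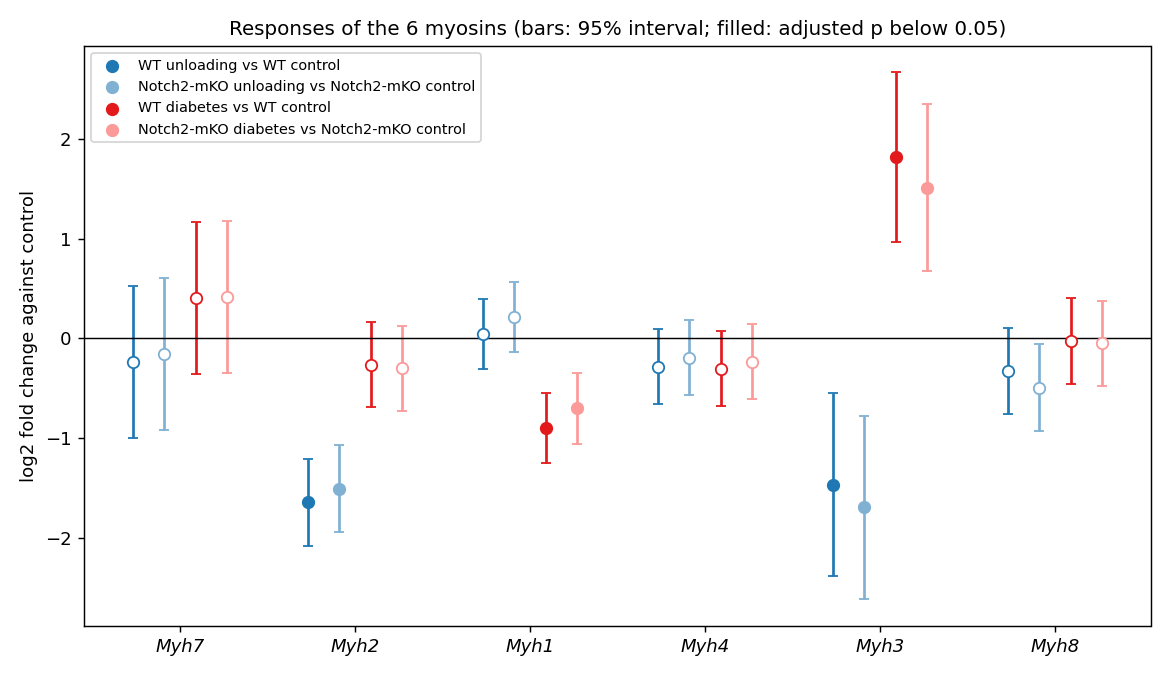
Log2 fold change of each myosin against the control of its genotype (vertical axis), with 95% intervals from the edgeR fit, for unloading (blue) and diabetes (red) in WT (dark) and Notch2-mKO (light). Filled points passed adjusted p below 0.05: Myh2 in unloading, Myh1 in diabetes and Myh3 in both, in each genotype.

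Counting all 6 genes, treated and control libraries did not overlap for 2 in WT unloading (33.3% of all genes tested), 2 in WT diabetes (30.0%), 2 in Notch2-mKO unloading (12.6%) and 2 in Notch2-mKO diabetes (17.8%). The median log2 fold change of the 6 was -0.30 in WT unloading and -0.15 in WT diabetes, against -0.02 and -0.01 over all genes. In the WT comparisons, a count of 2 among 6 is close to the share of genes called over the whole table.

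The treatments were also compared directly, a test added after the values were seen, which shares no control library between its sides. In WT, Myh2 and Myh3 were higher and Myh1 lower in diabetes than in unloading, 2 higher and 1 lower among the 6 genes where 2.31% of all genes were higher and 1.24% lower. The differences were log2 fold change 1.38, SE 0.21, adjusted p = 0.000533 for Myh2, log2 fold change 3.28, SE 0.45, adjusted p = 0.000192 for Myh3 and log2 fold change -0.94, SE 0.17, adjusted p = 0.00292 for Myh1. In Notch2-mKO the same 3 genes passed in the same directions (1.95% of all genes were higher and 1.12% lower), with Myh2 at log2 fold change 1.21, SE 0.21, adjusted p = 0.00177, Myh3 at log2 fold change 3.20, SE 0.45, adjusted p = 0.000210 and Myh1 at log2 fold change -0.92, SE 0.17, adjusted p = 0.00330. All 3 passed without any one library and on summed myosin counts in both genotypes. Diabetic and unloaded libraries did not overlap in CPM for any of them. As shares of the summed myosin counts they overlapped for Myh1 in WT and for Myh2 in Notch2-mKO. Myh4 differed by -0.02 in WT (95% interval -0.39 to 0.36).

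No difference between the genotypes passed for any of the 6 genes. In controls the estimates lay between -0.06 (Myh4) and 0.14 (Myh2), in unloading between -0.21 (Myh8) and 0.28 (Myh2), and in diabetes between -0.17 (Myh3) and 0.23 (Myh1), with every pair of groups overlapping. Background was as low: 0% of all genes passed in each of these edgeR comparisons (0 of 13048, with 695, 1345 and 692 at an unadjusted p under 0.05, and 3, 5 and 0 by DESeq2). The difference between the genotypes in response was likewise called for 0 of 6 in unloading and 0 of 6 in diabetes, where 0% of all genes passed (1875 and 1142 at an unadjusted p under 0.05, 123 and 3 by DESeq2). Without WT control library 4 edgeR called 427 and 62 of all genes, with 0 of the 6 among them. None of the 6 had an unadjusted p under 0.05 in these 5 comparisons or a call by DESeq2. The intervals bound what could be seen: for Myh2 the difference in the unloading response was 0.14 (-0.46 to 0.74), for Myh1 in the diabetes response 0.19 (-0.30 to 0.69) and for Myh3 in the diabetes response -0.31 (-1.48 to 0.87).

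Of 11 slow sarcomere and calcium genes, 2 fell and 0 rose in WT unloading, and 2 rose and 0 fell in WT diabetes. Over all genes 16.3% fell and 18.4% rose in WT unloading and 15.5% fell and 17.8% rose in WT diabetes, the shares against which this and the following counts are to be read, and the 2 that fell and the 2 that rose lie near them. Their median log2 fold change was -0.44 in WT unloading and 0.15 in WT diabetes, against -0.02 and -0.01 over all genes. The slow ventricular light chain Myl3 fell in unloading from 391 ± 89.9 to 132 ± 64.5 CPM in WT (log2 fold change -1.56, adjusted p = 0.000145) and passed in Notch2-mKO as well (log2 fold change -1.40, adjusted p = 0.00622). Myl2, the slow regulatory light chain, fell in WT unloading (log2 fold change -1.20, adjusted p = 0.0249). Casq2, a calcium store protein of slow and cardiac muscle, rose in diabetes in WT from 9.74 ± 2.78 to 22.4 ± 6.29 CPM (log2 fold change 1.20, adjusted p = 0.000513) and in Notch2-mKO (log2 fold change 0.82, adjusted p = 0.0445).

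Of 12 fast sarcomere and calcium genes, 1 rose and 2 fell in WT unloading, and 1 rose and 7 fell in WT diabetes, against 18.4% rising and 16.3% falling in WT unloading and 17.8% and 15.5% in WT diabetes over all genes. In WT diabetes the fast troponin I gene Tnni2 fell from 11451 ± 945 to 7505 ± 974 CPM (log2 fold change -0.61, adjusted p = 0.000606), and the fast light chain Myl1 from 14534 ± 1481 to 7121 ± 2646 CPM (log2 fold change -1.03, adjusted p = 0.00361). Mylk2, the kinase of the fast regulatory light chain, rose in WT unloading (log2 fold change 1.20, adjusted p = 0.000447). The median of the 12 was -0.26 in WT unloading, and for WT diabetes it was -0.45. In Notch2-mKO the lowest adjusted p of the 12 was 0.0673 in unloading and 0.0752 in diabetes, with medians of -0.10 and -0.27.

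Among 10 tested genes of muscle development and regeneration, 3 rose and 1 fell in WT unloading, and 3 rose and 2 fell in WT diabetes, near the shares over all genes (18.4% and 16.3% in WT unloading, 17.8% and 15.5% in WT diabetes). Actc1, the actin of the heart and of developing muscle, fell in both (WT unloading log2 fold change -3.84, adjusted p = 0.000144; WT diabetes log2 fold change -2.27, adjusted p = 0.00835), and in Notch2-mKO unloading (log2 fold change -2.92, adjusted p = 0.0110). Its WT control values had a wide spread, 1168 ± 937 CPM (SD, n = 4). Myl4, the embryonic light chain, rose in both (WT unloading log2 fold change 0.74, adjusted p = 0.00265; WT diabetes log2 fold change 0.87, adjusted p = 0.000691). Myod1, a myogenic transcription factor, fell in WT diabetes (log2 fold change -1.27, adjusted p = 0.000271).

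Of 24 regulators of fibre type, 4 rose and 2 fell in WT unloading and 3 rose and 1 fell in WT diabetes. Over all genes 18.4% rose and 16.3% fell in WT unloading and 17.8% and 15.5% in WT diabetes, so the counts are no higher than over the whole table. Mef2a rose in both (log2 fold change 0.79, adjusted p = 0.000404; log2 fold change 0.72, adjusted p = 0.00107), as did Tbx15, a factor of glycolytic fibres (log2 fold change 0.54, adjusted p = 0.000407; log2 fold change 0.44, adjusted p = 0.00281). Mef2c rose in WT unloading (log2 fold change 0.87, adjusted p = 0.00318). In Notch2-mKO the lowest adjusted p of the 24 was 0.0527 in unloading and 0.159 in diabetes.

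Of 13 genes for myosin folding, the thick filament and its ubiquitin ligases, 2 rose and 4 fell in WT unloading and 3 rose and 2 fell in WT diabetes, where 18.4% of all genes rose and 16.3% fell in WT unloading and 17.8% and 15.5% in WT diabetes. Smyd1, a methyltransferase needed for thick filament assembly, fell in WT unloading from 990.5 ± 138 to 587 ± 106 CPM (log2 fold change -0.76, adjusted p = 0.000972), in WT diabetes (log2 fold change -0.70, adjusted p = 0.00192) and in Notch2-mKO unloading (log2 fold change -0.53, adjusted p = 0.0475). Mybph, a thick filament binding protein, fell in WT unloading (log2 fold change -2.17, adjusted p = 0.00355). Trim54, a sarcomeric ring finger protein, fell in WT diabetes (log2 fold change -0.60, adjusted p = 0.00356). Of 7 tested myosin heavy chains outside the 6, 1 rose and 2 fell in WT unloading, beside the same 18.4% and 16.3%. Those that fell were the nonmuscle chains Myh9 (log2 fold change -0.60, adjusted p = 0.00151) and Myh10 (log2 fold change -0.63, adjusted p = 0.0363), and Myh14 rose (log2 fold change 0.70, adjusted p = 0.0232). In WT diabetes the smallest adjusted p among these 7 was 0.0628.

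Across the 24 libraries the genes most like each myosin differed between members (Pearson's r of log2 CPM among 9444 genes averaging 2 CPM or more, a description in which groups and libraries are shared). Myh7 was closest to Tnnc1 (r = 0.94), Atp2a2 (0.94) and Tnni1 (0.93), the slow troponin C, the calcium pump of slow fibres and the slow troponin I. With group means removed these 3 had r of 0.97, 0.93 and 0.96, so that the likeness also held between libraries of a group. Myh2 was closest to Myl3 (r = 0.90), Pdlim1 (0.90) and Cryab (0.89), and Myh4 to Srl (r = 0.91), Cs (0.89) and Ankrd9 (0.87). Myh1 was closest to Dhrs11 (r = 0.84), H2afj (0.83) and Hist2h2aa2 (0.83), Myh3 to Fabp3 (r = 0.91), Rab15 (0.88) and Hspa1a (0.86) and Myh8 to Paics (r = 0.73), Slc7a8 (0.72) and Aff1 (0.69). For Myh1 and Myh3 the leading likeness was mostly between groups, since with group means removed r fell to 0.26 for Dhrs11 and to 0.27 for Fabp3. It also fell for Myh2, to 0.52 with Myl3. It was 0.64 for Myh8 with Paics and 0.925 for Myh4 with Srl.

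The low-Myh7 libraries were low in slow genes together. Summed over the 11 slow genes, WT control library 3 had 1365 CPM against 2166 to 2337 in the other 3, WT unloading library 4 had 939.9 against 1436 to 2541, and Notch2-mKO unloading library 4 had 1199 against 1586 to 2336. Without WT unloading library 4 or any other library, Myh2 still fell in WT unloading, with log2 fold changes of -1.78 to -1.48 over 8 fits. Within groups, however, Myh2 varied with Myh7 across the 24 libraries (Pearson's r of log2 CPM 0.79 with group means removed). The part of how the muscle was sampled in these values was not tested.

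**Figure D5:**
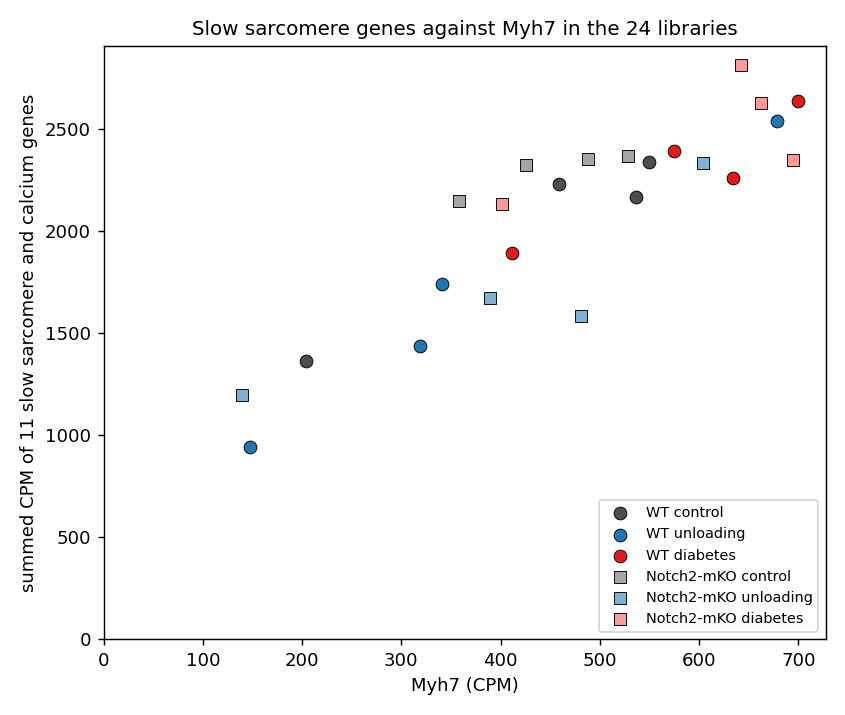
Summed CPM of 11 slow sarcomere and calcium genes (vertical axis) against Myh7 (horizontal axis, CPM), 1 point per library, circles WT and squares Notch2-mKO. The slow genes rise with Myh7 across libraries, and the 3 lowest libraries (139 to 204 CPM of Myh7) come from WT control, WT unloading and Notch2-mKO unloading.

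One more gene of the cluster is named after its values were seen. 2310065F04Rik, a long noncoding RNA at chr11:67112461-67120080 between Myh3 and Myh2, had 104 ± 25.6 CPM (SD, n = 4) in WT control, 36.1 ± 14.9 CPM in WT unloading and 49.1 ± 35.1 CPM in WT diabetes. It fell in WT unloading (log2 fold change -1.53, SE 0.44, adjusted p = 0.00884) and did not pass in WT diabetes (log2 fold change -1.08, SE 0.43, adjusted p = 0.0563) or Notch2-mKO unloading (log2 fold change -1.29, SE 0.44, adjusted p = 0.0677). Myh13, at the far end of the cluster, had at most 114 counts in any library and passed no comparison.

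The 6 genes resemble each other, which limits how exactly reads can be assigned. Coding sequences of Myh2 and Myh1 are 90.95% identical and those of Myh1 and Myh4 90.22%, whereas Myh3 shares 80.2 to 81.2% with the other clustered genes and Myh7 76.5 to 77.8% with all 5. Of 100-base windows of its transcript, Myh7 shares 11.2% with another myosin transcript (Myh6), Myh1 9.73%, Myh2 9.17%, Myh8 6.61%, Myh4 3.85% and Myh3 1.15%. Values of Myh8, at 3.23 to 9.99 counts per 100000 of Myh4, and of Myh1 and Myh2 are uncertain to the extent that the counting split such reads. Myh1 and Myh2, which share the most with each other, differed between diabetes and unloading in opposite directions. The part of read assignment in this difference was not tested.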

How the data were processed

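RNA of gastrocnemius was sequenced in 24 libraries, prepared commercially per the labels. The authors deposited 4 tables, each pairing the controls of a genotype with one treatment. Each holds estimated counts, per the file headers' raw columns, and the authors' log2 values. The build is mm10 per the submitters' processing notes, and the aligner and counter are unnamed (not given in the sources used here). The 8 control columns present in 2 tables were identical and used once. Estimated counts were rounded, scaled by trimmed mean of M-values (TMM) and fitted by edgeR 4.0.16 with 1 coefficient per group over all 24 libraries. P-values were adjusted by Benjamini-Hochberg over the 13048 genes left by filterByExpr, with a threshold of 0.05. CPM are TMM-scaled. The standard error is the log2 fold change divided by the root of its F statistic, and 95% intervals use the fit's degrees of freedom. Shares divide estimated counts by the sum over the 6 genes and carry no p. The fit was tested on simulated data.

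The members, the gene lists and the tests were chosen with earlier results of these data known. Named are all 6 members, the 3 genes most like each, and up to 3 genes per list with the smallest p in WT unloading or WT diabetes. The direct comparison of the treatments was added after the values were seen. Alternatives used DESeq2 1.42.0, limma 3.58.1 on the deposited log2 values, other scalings, a removed GC and length trend (GENCODE transcripts, 99.2% of tested genes), a replicate block and leaving out each library. Promoters are from RefSeq for GRCm38.p6, where all 6 members had an entry. With 33112459 to 56369917 counts per library, depth limits mainly Myh3.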

Additional observations from a re-analysis of the deposited data

Results flagged for a closer look

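Each of 72 sets of 4 libraries (6 genes, 6 groups, CPM and share) was checked for a value far from the other 3, and 4 were found. Chance alone marks about 1 in 20 such sets. In Notch2-mKO unloading, library 1 had a Myh4 share of 86.2% against 92.9 to 93.0% in the other libraries. In WT control, library 1 had Myh3 at 1.29 CPM against 2.85 to 3.06 CPM. In WT diabetes, library 3 had Myh3 at 19.6 CPM against 5.10 to 5.56 CPM, and the same library had a Myh3 share of 0.0307% against 0.00550 to 0.00732%. Their cause was not tested.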

How the results depend on the processing

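In each genotype, 2 of the 6 genes were called in unloading and 2 in diabetes. With library size set to the summed counts of the 6 genes, 1 was called in each of the 4 comparisons. Limma on the authors' log2 values called 1 in WT unloading, 1 in WT diabetes, 0 in Notch2-mKO unloading (where it called 1 gene of all 13048) and 1 in Notch2-mKO diabetes. The calls lost were Myh3 in all 4 and Myh2 in Notch2-mKO unloading, where its SE was 1.11. That fit was not run for the genotypes or the treatments against each other, since each deposited table pairs the controls of a genotype with one treatment. For the difference between the genotypes in response it was run, and it called 0 of the 6 genes in unloading and 0 in diabetes. Leaving out 1 library gave 1 to 2 calls in Notch2-mKO unloading and 0 to 2 in Notch2-mKO diabetes, and 2 throughout in both WT comparisons. Under the other scalings, DESeq2, no filter, only the groups compared and the GC and length trend removed, each of the 4 counts stayed at 2. Treated and control shares did not overlap in 5 of 24 cases (6 genes, 4 comparisons: Myh2 in unloading and Myh3 in diabetes in each genotype, and Myh1 in Notch2-mKO unloading), and in 3 when only the 4 adult genes were used, which leaves out Myh3.

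Over the whole table, for Notch2-mKO unloading edgeR called 954 genes, DESeq2 1455, limma 1 and edgeR on only the groups compared 331, and for Notch2-mKO diabetes 730, 1142, 1252 and 1592. For WT diabetes limma called 2762 against 4354, and for WT diabetes against WT unloading DESeq2 called 697 and edgeR on only these groups 257 against 464. Library size set to the summed myosin counts moved the median log2 fold change of all genes to 0.28 and 0.32 in WT unloading and WT diabetes and to 0.35 and 0.25 in Notch2-mKO, so that the split of higher to lower calls became 2631 to 323 in WT unloading, 2855 to 270 in WT diabetes, 582 to 41 in Notch2-mKO unloading and 132 to 26 in Notch2-mKO diabetes. Leaving out 1 library took the 464 genes called between WT diabetes and WT unloading to 309, 300 and 278 (without unloading library 1 or 2 or diabetes library 2), and the 400 in Notch2-mKO to 264, 195, 260 and 241 (without diabetes library 1, 2, 3 or 4). Upper quartile scaling gave 435 to 547 in Notch2-mKO unloading.

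Libraries of different groups share only a replicate number: the deviations of same-numbered libraries correlated by -0.0724 to 0.112 on average, and 0 to 2 of the 4 numbers per pair of groups correlated best with their own. The replicate block changed no count of members called: Myh2 in WT unloading had a log2 fold change of -1.67, and Myh1 in WT diabetes -0.90. It moved the genes called from 4522 to 4371 in WT unloading and from 730 to 488 in Notch2-mKO diabetes. Myh3, with 11.5 to 1025 counts, is the gene that depth limits most.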
